A study of Arabidopsis thaliana with 48 samples.

Results

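Seedlings of Arabidopsis thaliana that overexpress CCA1 (line CCA1OX) were compared with the wild type Col in the light at 120 min after dawn. The comparison used 5 arrays of CCA1OX and 5 of Col, chosen by genotype, light and time from the labels, which is 10 of the 48 arrays in the series. All 10 samples were pools of whole seedlings on medium with 3% sucrose, first in short days and then, from dawn of day 4, in repeated cycles of 160 min light and 320 min dark. In both lines this time is labelled as not growing. Each line was sampled on days 4, 5 and 6 of time course 1 (replicates 1 to 3) and on days 4 and 5 of time course 2 (replicates 4 and 5). A sample of 1 line therefore has a partner of the other line from the same time course and day, which gives 5 pairs. The labels name neither the promoter of the transgene nor the number of transformed plants behind the line. Days of 1 time course are repeats in time, so the p-values measure a spread between pools, not between single plants. In the main fit that spread was estimated from all 48 arrays, not from these 10 alone.

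CCA1 is a MYB-related transcription factor of the circadian clock that accumulates around dawn and represses genes of the evening. Constant overexpression of CCA1 is known to stop or flatten many circadian rhythms. In wild type seedlings the clock sets the time of hypocotyl elongation, mainly through PIF transcription factors and light, and it also times the use of starch and the response to cold. The probe set of CCA1 has no gene name in the table used here, so overexpression was not checked at CCA1 itself.

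Values are log2 levels made by RMA (robust multi-array average), and all differences are CCA1OX minus Col on that scale. The 10 arrays had medians from 4.566 to 4.724, and the lowest correlation was 0.9547 among Col arrays, 0.9755 among CCA1OX arrays and 0.9539 between the lines. Actin 3' minus 5' control values, a measure of RNA quality, ran from 2.73 to 3.08 in Col and from 2.63 to 2.92 in CCA1OX, with a median of 2.94 against 2.74. The part of this offset in the results was not tested. GAPDH 3' minus 5' values ran from -0.13 to 0.81 in Col and from -0.01 to 0.84 in CCA1OX. Their medians were 0.44 in Col and 0.47 in CCA1OX. Mean levels of 3 light-harvesting genes of green tissue ran from 9.53 to 10.68 in Col and from 10.28 to 10.65 in CCA1OX. The mean of 8 root-enriched genes overlapped as well, at 6.57 to 7.65 in Col and 7.08 to 7.40 in CCA1OX. The mean of 2 seed storage genes was 3.22 to 4.16 in Col and 3.69 to 4.78 in CCA1OX, with a median difference of 0.48 and 4 of 5 pairs higher. The part of this shift in the results was not tested.

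Overexpression of CCA1 went with a small set of called changes at this time. Of 22746 probe sets, 56 passed the test (limma with 1 mean per group over all 48 arrays, adjusted p under 0.05), which is 0.246% of those tested. In CCA1OX 35 were higher (0.154%) and 21 lower (0.0923%), and 21 of the 56 differed by at least 2-fold. Differences over all probe sets ran from -2.89 to 4.26, and neither extreme was called by this test. The arrays of the lines did not overlap for 40 of the 56, against 1.51% of all probe sets. All 5 pairs had the same sign for 53 of the 56, against 13.3% of all probe sets. Both counts come from the arrays that gave the calls, so they are no separate support. A single gene was named for 34 of the 56, of which 20 were higher and 14 lower. In RNA of whole seedlings, fewer cells of a type and less RNA per cell cannot be told apart.

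The count depended on the blocks and arrays in the fit. Time course and day were entered as a block over all Col and CCA1OX arrays of the series, not the 10 alone. With this block, 664 probe sets were called (2.92%), 256 higher (1.13%) and 408 lower (1.79%), and they included all 56. All 5 pairs had the same sign for 548 of the 664, against 13.3% of all probe sets, in arrays that also gave the calls. Single arrays mattered too: 12 probe sets were called without CCA1OX replicate 5, 18 without CCA1OX replicate 2, 23 without Col replicate 5, 33 without Col replicate 4 and 138 without Col replicate 1. In each of these fits the 56 kept their sign. In a fit of only the 10 arrays, 1 probe set was called, that of AT3G25150. With the pairs as a block in these 10 arrays, 9 were called, of which 6 were among the 56.

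**Figure D1:**
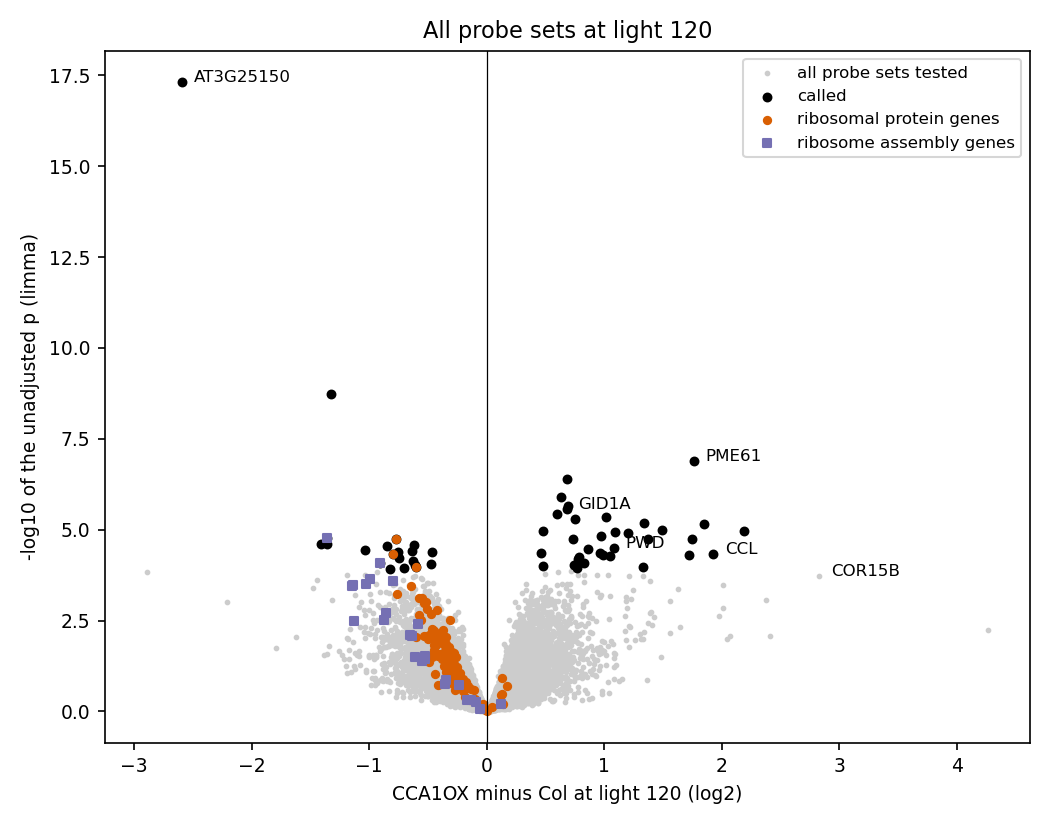
Difference between CCA1OX and Col at light 120 (x axis, log2) against the unadjusted limma p (y axis, -log10) for 22746 probe sets, with the 56 called in black. AT3G25150, at -2.59, stands far above all others by its p, while differences ran from -2.89 to 4.26. Most ribosomal protein and ribosome assembly genes lie left of 0 below the called points.

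AT3G25150, which encodes a protein with an NTF2 domain and an RNA recognition motif, had the smallest p of all probe sets. Its level was 7.25, 6.93, 7.07, 7.09 and 6.84 in Col replicates 1 to 5 and 4.90, 4.19, 3.85, 4.72 and 4.55 in CCA1OX replicates 1 to 5. Every CCA1OX array lay below every Col array. The difference was -2.59 ± 0.18 (SE, n = 5 and 5; adjusted p = 1.11e-13), a 6.03-fold lower level. The pairs were close to each other, from -3.22 to -2.29. The line difference at the other times was -2.31 at dark 280, -2.55 at light 1080 and -2.05 at dark 1240, each called.

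PWD and DPE1, both of starch metabolism, rose in CCA1OX. PWD, a phosphoglucan water dikinase that prepares the starch granule surface for degradation, had levels of 5.96, 7.24, 6.82, 7.49 and 7.62 in Col and 7.64, 8.10, 8.45, 8.05 and 8.27 in CCA1OX. The lowest CCA1OX array was just above the highest Col array. The difference was 1.08 ± 0.23 (adjusted p = 0.0262). DPE1, the plastid disproportionating enzyme that acts on maltotriose, had levels of 6.27, 5.82, 5.42, 6.40 and 6.65 in Col and 6.93, 6.82, 6.90, 6.89 and 6.93 in CCA1OX. The CCA1OX arrays of DPE1 were nearly equal, while Col ranged widely below them. The difference of DPE1 was 0.78 ± 0.18 (adjusted p = 0.0423). The third starch gene with a name, the branching enzyme SBE2.2, acts in synthesis and differed by -0.24 without a call. Thus 2 of the 3 named members of the starch list rose, out of 23 genes written in the list, against 0.154% called higher over all probe sets. Without Col replicate 1, whose pair had the largest PWD difference at 1.68, PWD was 0.81 higher and not called. PWD also lost its call without Col replicate 3 or CCA1OX replicate 2, 3 or 5 (adjusted p up to 0.103), and DPE1 without any of Col replicates 2 and 3 or any CCA1OX replicate (up to 0.129).

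GID1A, a soluble gibberellin receptor, was higher in CCA1OX with little spread. Its level was 5.85, 5.60, 5.98, 5.96 and 5.97 in Col and 6.29, 6.60, 6.69, 6.52 and 6.65 in CCA1OX. The lines did not overlap, and the difference was 0.68 ± 0.13 (adjusted p = 0.00875). It stayed called in each fit that left out 1 of the 10 arrays, with differences from 0.61 to 0.74. The other members of the gibberellin list with a name, GID1B among them, did not pass; the list median was 0.15. At the other times GID1A differed by 0.18, 0.07 and 0.01 at dark 280, light 1080 and dark 1240, none of them called.

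CCL (CCR-like), a clock-controlled transcript, was higher in CCA1OX in 4 of 5 pairs. Its level was 9.28, 7.58, 6.64, 5.91 and 7.06 in Col and 8.75, 9.25, 9.42, 9.06 and 9.59 in CCA1OX. CCA1OX arrays stayed within a narrow band, and Col replicate 1 lay inside it while the other Col arrays lay below it. The difference was 1.92 ± 0.42 (adjusted p = 0.0288). Without Col replicate 1 it was 2.42. The call was lost without Col replicate 3, 4 or 5 or CCA1OX replicate 2, 3 or 5, with adjusted p up to 0.169. CCL was the 1 called gene among 4 named members of the clock output list, against 0.154% called higher over all probe sets. The list median was 0.33.

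**Figure D2:**
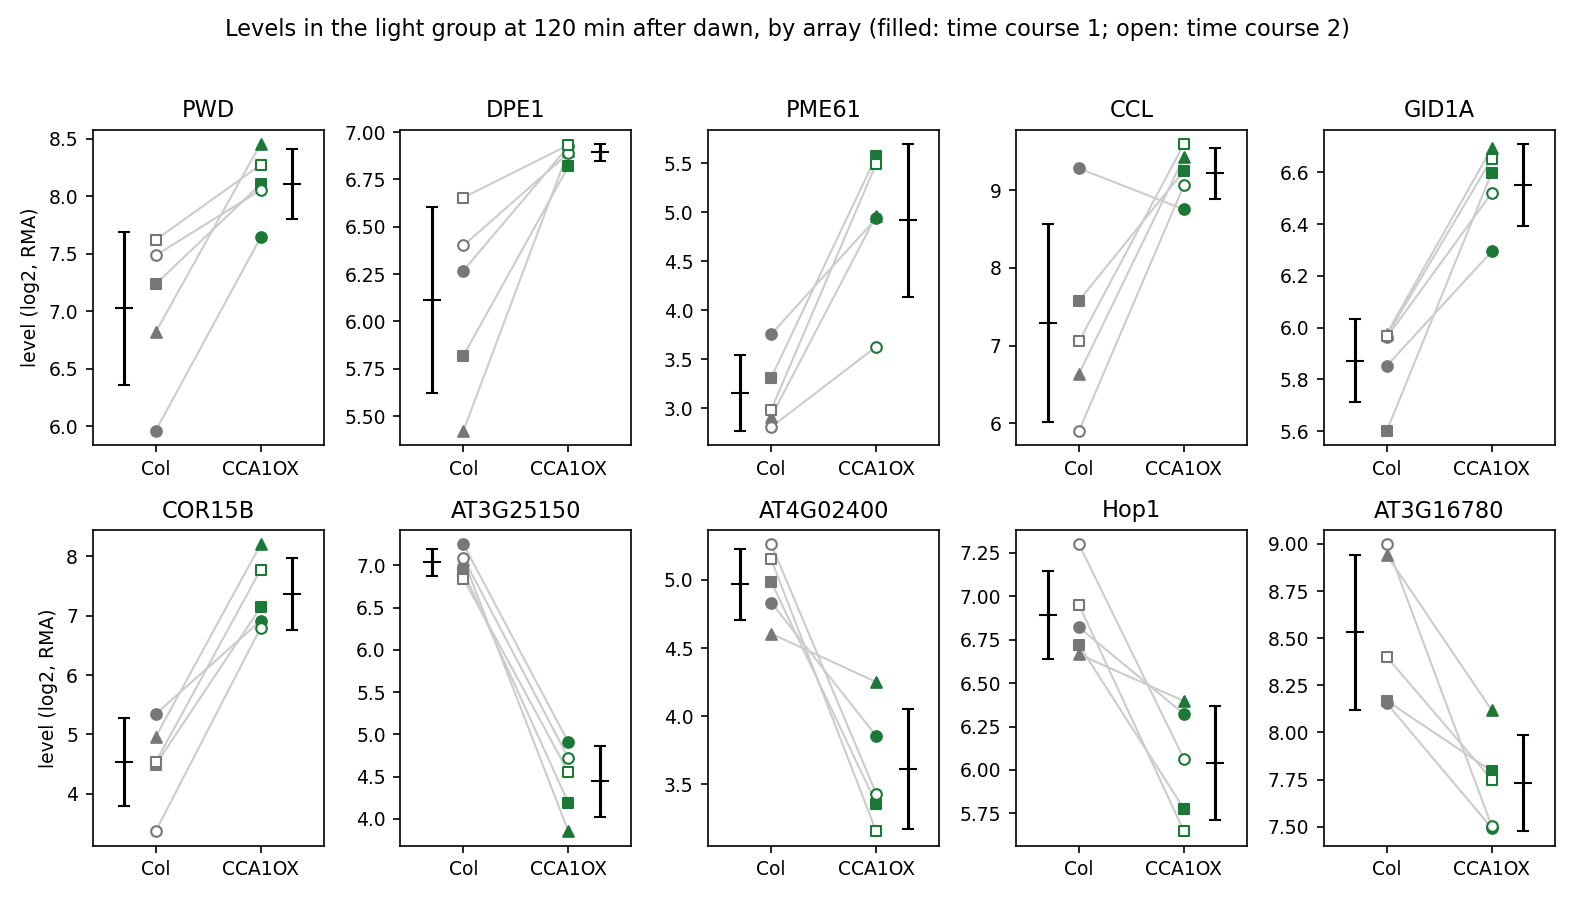
Level of 10 genes (y axis, log2 RMA) in each Col array (grey) and CCA1OX array (green) at light 120, with lines joining arrays of the same time course and day. Circles are day 4, squares day 5 and triangles day 6, filled for time course 1 and open for time course 2; bars give mean and SD of 5 arrays. AT3G25150 and GID1A separate the lines in narrow bands, and CCL has 1 Col array, at 9.28, among the CCA1OX arrays.

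PME61, a pectin methylesterase that modifies wall pectin, had levels of 3.75, 3.31, 2.91, 2.81 and 2.98 in Col and 4.94, 5.57, 4.96, 3.63 and 5.49 in CCA1OX. One CCA1OX array, replicate 4, fell into the Col range, and each CCA1OX array was above its own partner. PME61 differed by 1.76 ± 0.28 (adjusted p = 0.000956), and it remained called in each fit without 1 of the 10 arrays. The SD of its own arrays at light 120 was 0.39 in Col and 0.78 in CCA1OX. AT1G30760, of the berberine bridge enzyme family of oxidases, was at 2.80 to 4.17 in Col and 4.10 to 5.93 in CCA1OX, and all 5 pairs were higher. Its difference was 1.85 ± 0.36 (adjusted p = 0.0128). AT5G22580, with a stress-responsive A/B barrel domain, had the highest difference of the called genes with a name, 2.19 ± 0.44 (adjusted p = 0.016). It was at 5.22 to 6.93 in Col and at 7.49 to 9.01 in CCA1OX, with no overlap.

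DI21, a drought-induced gene, rose by 0.97 ± 0.20 (adjusted p = 0.0184), with Col arrays at 7.30 to 7.80 and CCA1OX arrays at 8.08 to 9.05. FDH, the mitochondrial formate dehydrogenase, rose by 0.86 ± 0.19 (adjusted p = 0.0262); its Col replicate 1 at 9.11 lay within the CCA1OX range of 9.06 to 9.67, and the other Col arrays were at 8.35 to 8.46. AT5G57150, a bHLH transcription factor, rose by 0.79 ± 0.18 (adjusted p = 0.0314), with no overlap. The called set also held AT4G01130, a GDSL-type lipase or esterase, at 1.05, AT1G12845 at 1.33 (higher in 4 of 5 pairs) and AT1G43590, annotated as a pseudogene, at 0.77. A further 7 named genes were called higher, by 0.46 to 0.77. The 2 highest called probe sets without a name, 266799_at and 260773_at, rose by 1.74 and 1.72. Without CCA1OX replicate 5 the call was lost for AT1G30760, AT5G22580, DI21, FDH, AT5G57150, AT4G01130, AT1G12845, AT1G43590 and both probe sets, and most also without other arrays, with adjusted p up to 0.183 (AT1G43590).

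**Figure D3:**
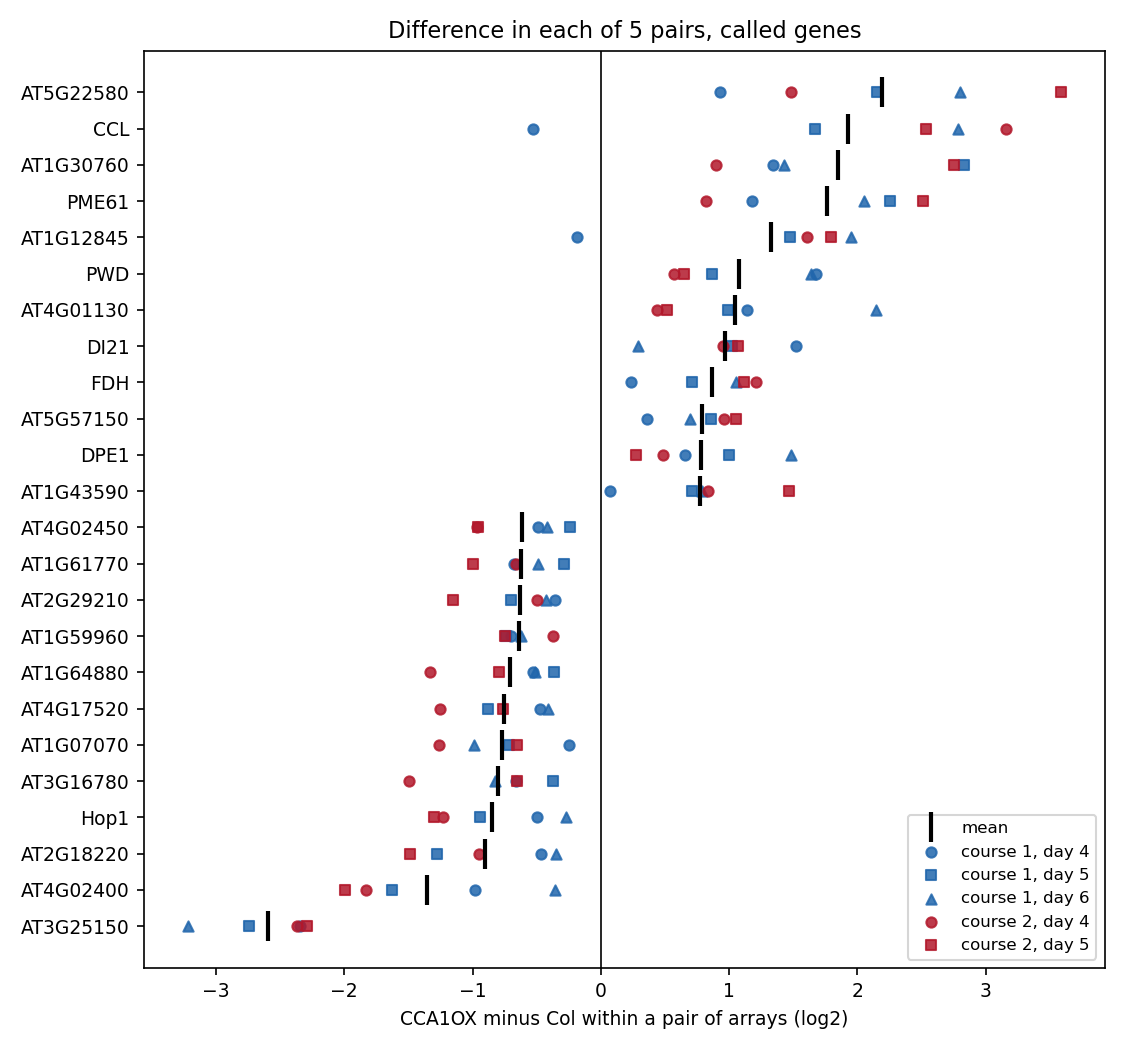
CCA1OX minus Col (x axis, log2) in each of the 5 pairs of arrays for the 12 highest and 12 lowest called genes with a name; the black bar is the mean. CCL at -0.53 and AT1G12845 at -0.19 each have 1 pair, day 4 of time course 1, on the other side of 0.

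Of the 21 probe sets called lower in CCA1OX, 14 had a single gene, and AT3G25150 was the lowest of these. AT4G02400, a Utp14-family protein of the small subunit processome that cuts pre-ribosomal RNA, had levels of 4.83, 4.99, 4.61, 5.26 and 5.15 in Col and 3.86, 3.36, 4.25, 3.43 and 3.15 in CCA1OX. The lines did not overlap, and the difference was -1.36 ± 0.28 (adjusted p = 0.0184). AT2G18220, of the Noc2 family that moves pre-ribosomes out of the nucleolus in yeast, differed by -0.90 ± 0.21 (adjusted p = 0.042). Its CCA1OX replicate 3, at 4.04, was just above the lowest Col array at 4.01. The cytosolic ribosomal proteins called were AT3G16780 (an L19 gene), AT1G07070 (L35a) and AT1G18540 (L6), at -0.80 ± 0.18, -0.77 ± 0.16 and -0.60 ± 0.14, with adjusted p of 0.0288, 0.0184 and 0.046. AT3G16780 was at 8.15 to 9.00 in Col and 7.49 to 8.12 in CCA1OX, with no overlap. AT1G64880, of the S5 family of ribosomal proteins, differed by -0.71 ± 0.17 (adjusted p = 0.0464).

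Among co-chaperones, Hop1, which links HSP70 to HSP90, had levels of 6.82, 6.72, 6.66, 7.30 and 6.95 in Col and 6.32, 5.78, 6.40, 6.06 and 5.65 in CCA1OX. All CCA1OX arrays were lower, and the difference was -0.85 ± 0.18 (adjusted p = 0.0243). AT4G02450, a p23-like HSP90 co-chaperone, and AT1G61770, a DnaJ-domain protein, differed by -0.61 ± 0.14 and -0.62 ± 0.13 (adjusted p = 0.0432 and 0.0225). The RNA-binding protein gene AT4G17520 differed by -0.76, AT2G29210, with a PWI domain of splicing factors, by -0.63, and the oxidoreductase gene AT1G59960 by -0.64; all 3 were called. The 2 lowest called probe sets without a name, 251667_at and 262094_at, were at -1.41 and -1.36. A further gene with a name was called lower, at -0.46. Except AT3G25150, each gene named above that fell, and both probe sets, lost their call without CCA1OX replicate 2 and without CCA1OX replicate 5, with adjusted p up to 0.195.

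Because several called genes belonged to ribosome production, a pair of lists was written after these values were seen, and they carry no test. Of 211 nuclear genes for ribosomal proteins, 121 probe sets had a name; 114 of the 121 (94.2%) were lower in CCA1OX, against 47.7% of all probe sets. Their median difference was -0.32, against 0.01 over all probe sets. Only 3 were called lower (2.48%, against 0.0923%), the 3 that prompted the list, and 19 with the block (15.7%, against 1.79%). The probe sets are bright: 109 of the 121 lay above the median level of all probe sets, where 2.55% were called lower with the block. None was called higher by either fit. Near-identical copies of these genes can share probe signal, which was not tested. All 5 pairs were lower for 39 of the 121 (32.2%, against 6.45%). Examples called with the block were AT1G27400 (L17), at -0.51 (adjusted p = 0.0102 with the block, 0.13 without it), and AT5G56710 (L31), at -0.55 (0.00711 and 0.109).

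Genes of ribosome assembly differed by more. Of 42 genes written, 25 had a name. Of these, 24 were lower (96%, against 47.7% of all probe sets), with a median of -0.61, and 16 were lower in all 5 pairs (64%, against 6.45%). The test called 2 of them (8%, against 0.0923% called lower over all probe sets), AT4G02400 and AT2G18220, which were among the genes that prompted the lists. The fit with the block called 12 (48%, against 1.79%), all lower. Among the 12 were AT3G05060, of the NOP56/NOP58 family of box C/D ribonucleoproteins, at -1.15 (adjusted p = 0.00314 with the block, 0.084 without), and AT4G25730, an FtsJ-like methyltransferase of ribosomal RNA, at -1.14 (0.00314 and 0.0813). AT1G06720, related to the yeast GTPase BMS1, was at -1.13 (0.0359 and 0.166), and AT2G37990, a homologue of the yeast assembly factor RRS1, at -1.00 (0.000835 and 0.0698). The member with the highest difference, the RNA helicase PRH75, was at 0.12.

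The size of the shift varied between pairs, and the list means spread more over the Col arrays than over the CCA1OX arrays. The mean level of the 25 assembly genes was 5.22, 5.63, 5.90, 6.10 and 5.99 in Col replicates 1 to 5 and 5.00, 5.02, 5.58, 5.02 and 5.11 in CCA1OX. In each pair CCA1OX was lower, yet Col replicate 1 was below CCA1OX replicate 3. The median difference of the assembly genes was -0.22, -0.51 and -0.30 on days 4, 5 and 6 of time course 1 and -1.06 and -0.89 on days 4 and 5 of time course 2. For the ribosomal protein genes it was -0.03, -0.08 and -0.44 in time course 1 and -0.84 and -0.25 in time course 2. No member of either list was called without CCA1OX replicate 2 or 5 or Col replicate 4, and 11 ribosomal protein genes and 7 assembly genes were called lower without Col replicate 1.

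**Figure D4:**
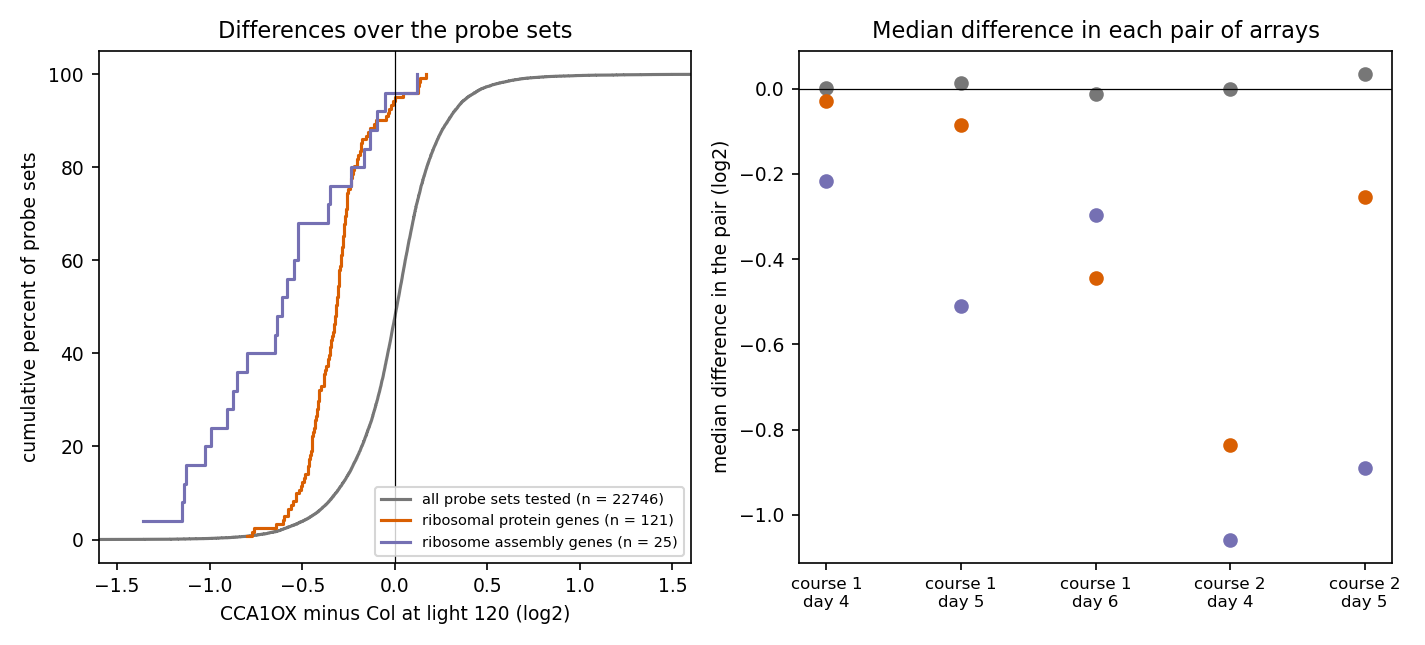
Left, cumulative percent of probe sets (y axis) by their CCA1OX minus Col difference at light 120 (x axis, log2) for all probe sets (grey), ribosomal protein genes (orange) and ribosome assembly genes (purple). Right, the median difference of the same sets in each pair of arrays; both lists are below 0 in all 5 pairs, from -0.03 to -0.84 and from -0.22 to -1.06, while all probe sets stay near 0.

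Some large differences missed the test over all 48 arrays and passed it with time course and day as a block. COR15B, which encodes a chloroplast protein that protects membranes during freezing, had levels of 5.34, 4.49, 4.96, 3.37 and 4.53 in Col and 6.92, 7.14, 8.20, 6.79 and 7.78 in CCA1OX. The lines did not overlap, and the difference was 2.83 ± 0.69 (adjusted p = 0.0622, and 0.0146 with the block). Without Col replicate 1 it was 3.03 and passed without the block (adjusted p = 0.037). Its neighbour and paralogue COR15A was 2.41 higher, also without overlap, and passed neither fit (0.229 and 0.0893). The remaining named members of the cold list, COR27, COR47 and LTI30, differed by 0.16, -0.22 and -0.47 and were not called. The list median was 0.16. Genes as similar as COR15A and COR15B can share probe signal, which was not tested.

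Sugar transporters of the SWEET family, which move sucrose or hexoses out of cells or vacuoles, went both ways with the block. SWEET3 was higher by 1.39 (adjusted p = 0.012 with the block, 0.143 without) and SWEET17, a vacuolar fructose transporter, by 0.91 (0.0113 and 0.295). Without Col replicate 4, SWEET17 was 0.59 higher. SWEET14 was lower, at -1.48 (0.0205 and 0.0925), and its Col replicate 3 reached 6.54 while the other Col arrays were at 3.75 to 4.98. The other 11 of the 14 named members of the list were not called. Over all probe sets, 1.13% were called higher and 1.79% lower with the block. YUC2, an enzyme of auxin synthesis, was higher by 0.57 (0.0348 and 0.229). With the block it was the 1 called of 6 named members of the PIF and shade list, against the same 1.13%. The seed storage gene AT1G03890 was higher by 0.27 (0.037 and 0.148), at levels near 2 in both lines.

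The genes with the highest and lowest differences under the block were chosen after values were seen. Another pectin methylesterase, ATPMEPCRD, was higher in all 5 pairs, from 1.19 to 2.87, with a mean of 1.98 (adjusted p = 0.00609 with the block, 0.154 without). Another gene of the berberine bridge enzyme family, AT5G44440, was higher by 2.05 (0.00383 and 0.241), with pairs from 0.28 to 4.35. Without Col replicate 3, AT5G44440 was 1.21 higher. The universal stress protein gene AT3G62550 was higher by 1.42, the DnaJ-domain gene AT1G56300 by 1.40 and AT4G39675 by 1.24. On the lower side, the thionin gene AT1G66100 was at 6.06, 8.01, 5.94, 2.71 and 6.62 in Col and at 2.82, 2.85, 3.24, 3.01 and 2.96 in CCA1OX. Only Col replicate 4 was as low as CCA1OX, and the difference was -2.89 (0.00454 and 0.056). Without that array it was -3.68 and passed without the block (adjusted p = 0.00706). AT1G23130, of the Bet v 1 family, had the same array as its Col minimum, at 3.39, and differed by -1.79 (0.0215 and 0.279). The HSP70-family gene AT4G16660 was at -1.45 (0.00293 and 0.0714), the WD40-repeat gene AT1G49450 at -1.31, the deubiquitinating enzyme gene UBP23 at -1.03 and AT5G51840 at -1.03.

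Beside CCL, the other clock and growth genes given here did not pass the test at this time. GI, an evening gene of the clock, was at 6.29 to 7.31 in Col and 6.93 to 7.79 in CCA1OX. The difference was 0.67 ± 0.65 (adjusted p = 0.718), with all 5 pairs higher. This SE includes the spread at other times. The SD of GI at light 120 was 0.40 in Col and 0.34 in CCA1OX, against 1.72 in Col at dark 280. At dark 1240, by contrast, GI differed by 2.85 and was called. The MYB-like gene AT5G52660, related to CCA1, differed by 0.43 and COR27, a cold and clock gene, by 0.16. IAA29, an auxin response repressor and PIF target, differed by 0.15 ± 0.76, with pairs from -1.09 to 0.75. The auxin-conjugating genes WES1 and GH3.3 differed by 0.17 and -0.45, and HYH, a light-induced bZIP factor, by -0.57. None of these 7 was called at light 120 by either fit.

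Of the 31 lists with a named member, 22 had no call in either fit, 236 probe sets in all. They covered Aux/IAA genes (7 named), light signalling (4), flowering time (3), flavonoid synthesis (6), nuclear photosystem subunits (4) and chlorophyll synthesis (3). They also covered expansins and xyloglucan endotransglucosylases (28), cytochromes P450 (22), UDP-glycosyltransferases (47), histones with cdc2cAt and CDC27a (8) and chloroplast-encoded genes (69), among others. Their medians lay between -0.23 and 0.67, the latter from GI alone in the evening clock list. The cyclin and histone list held histone genes, cdc2cAt and CDC27a, and no cyclin had a name in it. Of its 8 members, 6 were lower, against 47.7% of all probe sets, with a median of -0.19. All 5 pairs were lower for 5 of the 8, against 6.45% of all probe sets, and none was called by either fit. Chloroplast-encoded genes ranged from -1.62 to 1.03 around a median of 0.04.

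The line difference was also measured at 3 other times, whose means have no array in common with light 120. All 4 contrasts came from the same fit and share its residual spread, so the overlaps are not between separate tests. At dark 280, light 1080 and dark 1240 the test called 28 (0.123%), 35 (0.154%) and 141 (0.62%) probe sets. The light-induced gene HYH stood apart in 3 arrays of these times. It was at 4.82 in Col dark 280 replicate 3 (group mean 3.12) and 5.76 in CCA1OX dark 280 replicate 2 (group mean 2.80). In Col light 1080 replicate 3 it was at 2.58 (group mean 5.12). These arrays were kept in the main fit, and the cause was not tested. The 56 probe sets of light 120 shared 8 with dark 280 (14.3% of the 56 and 28.6% of the 28), 12 with light 1080 (21.4% and 34.3%) and 12 with dark 1240 (21.4% and 8.51%), all with the same sign. At all 4 times 5 probe sets were called, AT3G25150, DI21, AT5G57150 and a pair without a name. PME61 was called in the light at both times, at 1.76 and 1.78, and differed by 0.67 and 0.65 in the dark without a call. Of the 56, 52 had the same sign at all 4 times. The share of all probe sets with this property was not computed, and the other times came from the same time courses. The ribosome lists leaned the same way at each time: the medians of ribosomal protein genes were -0.24, -0.26 and -0.17 and those of assembly genes -0.27, -0.42 and -0.24 at dark 280, light 1080 and dark 1240, with no call in either list there without the block.

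The difference between times was tested directly. Against dark 280 and light 1080 no probe set had a line difference that differed from that at light 120 (limma interaction, 700 and 480 with an unadjusted p under 0.05; with the block also 0). So the change of GID1A, called at light 120 alone, was not shown to differ from the other times. Against dark 1240, 10 probe sets passed (0.044%), all with a lower line difference at light 120. A gene was named for 2 of them. AT1G69570, a Dof-type transcription factor gene, differed by 0.29 at light 120 and 2.55 at dark 1240, and the contrast was -2.26 ± 0.43 (adjusted p = 0.0167). At light 120 its Col arrays were at 3.87 to 5.82 and its CCA1OX arrays at 4.47 to 5.68, which overlap fully. AT1G73480, an alpha/beta hydrolase gene, differed by 0.01 and 2.01, and the contrast was -2.00 ± 0.41 (adjusted p = 0.0353). The largest contrasts, chosen after the values were seen, were those of 266719_at, at 2.01 against 6.11, and 249383_at, at 0.07 against 3.48, neither with a name. Without Col light 120 replicate 2 no probe set passed this contrast. All 3 contrasts between times include the arrays whose HYH level stood apart. In the 45 arrays without them, 1 probe set passed against dark 280, 0 against light 1080 and 32 against dark 1240.

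**Figure D5:**
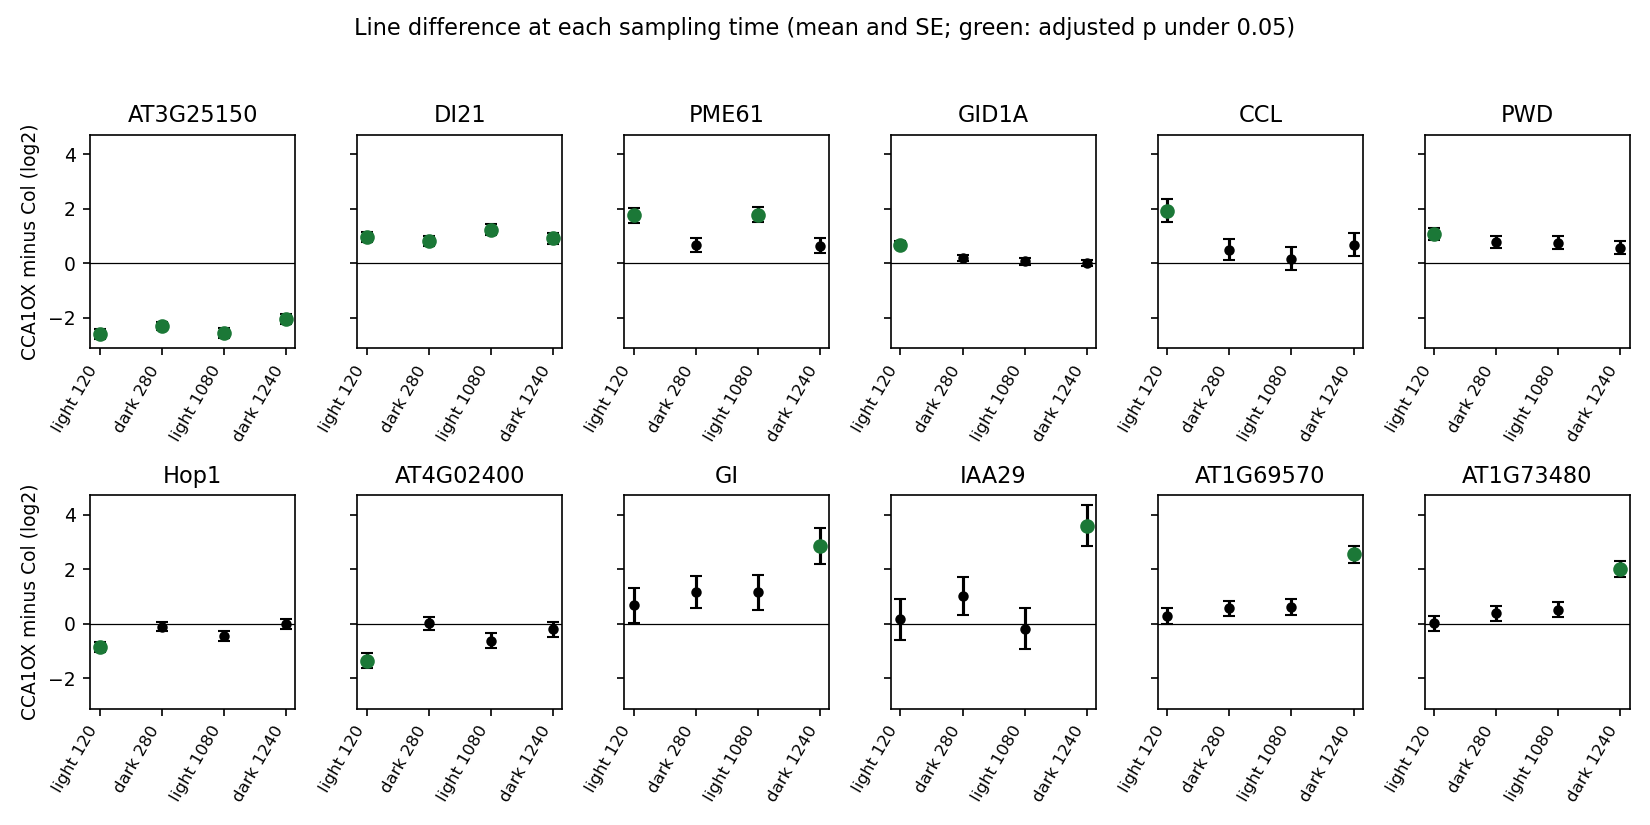
CCA1OX minus Col (y axis, log2, mean and SE from the limma fit) at light 120, dark 280, light 1080 and dark 1240 for 12 genes; green points have an adjusted p under 0.05. AT3G25150 and DI21 are called at all 4 times, GID1A, CCL, PWD, Hop1 and AT4G02400 at light 120 alone, and GI, IAA29, AT1G69570 and AT1G73480 at dark 1240 alone.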

How the data were processed

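The deposited table holds log2 levels of Affymetrix ATH1 probe sets, made by the authors with RMA in affy (no version given), per the submitters' processing notes. Arrays give no counts, so their number limits the precision. After 64 control probe sets were left out, the other 22746 were tested (limma 3.58.1, R 4.3.3). The model fitted a mean for each group in all 48 arrays (39 residual degrees of freedom, median residual SD 0.244), and p was two-sided with Benjamini-Hochberg adjustment. A single gene was named for 13513 probe sets; 503 had several and 8730 had no name here.

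The labels pair the arrays by time course and day. Residuals of partners correlated by 0.447, 0.313, 0.338, 0.471 and 0.26. Time course and day therefore entered a second fit as a block, over all Col and CCA1OX arrays (29 residual degrees of freedom). Each of the 4 array batches of these arrays held both lines, so pair differences are within-batch values.

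Members and lists were chosen with earlier results of these data known. Named genes are the 12 highest and 12 lowest called with a single gene, called list members (up to 5), genes fixed by name and called interactions. Lists without a call are given by counts and medians only, which departs from a rule to name 2 members of each. Named after values were seen are both ribosome lists and genes picked under the block. The steps were tested on simulated data. Alternatives were other blocks, each time course alone, centring, quantile normalization, brighter probe sets, a trended robust prior, array weights, subsets of arrays and each array left out.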

Additional observations from a re-analysis of the deposited data

Results flagged for a closer look

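In 6 of 118 groups of 5 arrays examined, 1 array stood far from the other 4; chance gives about 1 in 20. They were AT3G62550 in Col replicate 4, at 3.11 against 4.85 to 5.48, SWEET3 in Col replicate 1, at 5.91 against 4.33 to 4.74, FDH in Col replicate 1, at 9.11 against 8.35 to 8.46, and AT4G16660 in Col replicate 3, at 5.01 against 5.73 to 5.94. In CCA1OX they were AT1G43590 in replicate 5, at 4.06 against 3.08 to 3.35, and AT1G18540 in replicate 3, at 9.98 against 9.57 to 9.61. The line difference at light 120 differed from that at dark 1240 for 10 probe sets by the limma interaction. Those with a name were AT1G69570, at -2.26, and AT1G73480, at -2.00.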

How the results depend on the processing

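The 56 probe sets called at light 120 became 664 with a replicate block of time course and day, 240 with a replicate block of time course and 379 with array batch as a block, and all 56 were in each of these. They became 112 with array weights, 86 in 45 arrays (without 3 arrays of other times whose HYH level stood apart, added after the data were seen), 3 in time course 1 alone, 1 in only the 10 arrays and 9 in those with a replicate block, an alternative added after the data were seen. Leaving out 1 of the 10 arrays gave 12 to 138. Median centring, repeated quantile normalization, brighter probe sets and the trended robust prior gave 46 to 61. Time course 2 alone gave 74, of which 14 were among the 56. Of the 3 in time course 1 alone, 1 was among the 56. The 9 called list members became 41, 19 and 29 with the 3 blocks, 0 in time course 1 alone, 5 in time course 2 alone, 0 in only the 10 arrays, 1 in those with a replicate block, and 1 to 23 with 1 array left out. The contrast with dark 1240 (10 called) gave 13 and 8 with the replicate blocks, 32 with array weights, 32 in 45 arrays, 1 in each time course alone, 16 in only the arrays compared, and 0 to 14 with 1 array left out. The contrast with dark 280 gave 1 in 45 arrays and 0 to 1 with 1 array left out. The contrast with light 1080 gave 0 in each fit run. All 30 named called probe sets kept their sign in each alternative, and 3 (AT3G25150, PME61 and GID1A) kept the call whichever of the 10 arrays was left out. Uncalled genes near 0 changed sign. IAA29 was below 0 in time course 1 alone (-0.11), without CCA1OX replicate 1 (-0.18) and without Col replicate 4 (-0.21) or 5 (-0.07). Its highest value was 0.80 (without Col replicate 1). AT1G73480 was below 0 in time course 1 alone (-0.30), without Col replicate 3 (-0.02) or 5 (-0.06) and without CCA1OX replicate 4 (-0.22). Its highest value was 0.47 over all alternatives, and 0.14 with 1 array left out (CCA1OX replicate 1). The cause of these changes was not tested.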
